A study of Arabidopsis thaliana with 22 samples.

Results

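The 10 genes of suberin synthesis, export and control were followed across all 22 libraries. They were taken by their identifiers from the 33602 genes of the count table and are *CYP86A1*, *CYP86B1*, *GPAT5*, *FAR1*, *FAR4*, *FAR5*, *ASFT*, *ABCG6*, *ABCG2* and *MYB41*. Of these, 9 are among the 21831 genes with enough counts to be tested. The exception is *ABCG2*. RNA came from whole 10-day-old *Arabidopsis thaliana* seedlings of 2 genotypes, the wild type (ecotype Col-0) and the *lrx345* mutant, which carries mutations in *LRX3*, *LRX4* and *LRX5*, genes of cell wall proteins called leucine-rich repeat extensins. Each genotype was sampled before salt (0 h, 2 libraries) and after 6, 24 and 72 h in NaCl (3 libraries at each time). The methods give the concentration as 150 mM for the 6 h treatment. None of these libraries comes from untreated seedlings of a later time, so time in NaCl cannot be told apart from seedling age. The methods do not give the hour of sampling. From a common start, 6 h would fall at another hour of the day than 0, 24 and 72 h, which cannot be told apart from salt either. The *lrx345* groups stand for 1 mutant line.

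Suberin is a polyester of fatty acids, glycerol and ferulic acid that is laid down between the plasma membrane and the wall of root endodermis, of periderm and of seed coats, where it limits the passage of water and ions. Its aliphatic monomers are made in the endoplasmic reticulum by hydroxylation, reduction and transfer to glycerol, exported by half-size ABC transporters, and joined in the wall. Salt and abscisic acid are known to increase suberin in the Arabidopsis endodermis, and several MYB factors turn on its genes.

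The deposited values are fragments counted per gene, between 7413461 and 15047080 per library. Levels are given here as FPKM, the counts divided by exon length and by the library size after TMM scaling, so that genes can be compared per length. Differences are log2 fold changes from edgeR's quasi-likelihood test with their SE, and a gene is called at an adjusted p under 0.05 after Benjamini-Hochberg adjustment over the 21831 genes. The mutated genes were lower in every *lrx345* library than in every wild type library of the same time, at 4 of 4 times for each. *LRX5* (AT4G18670) ranged from 36.0 to 70.0 FPKM in the wild type and from 5.09 to 12.6 FPKM in the mutant, *LRX4* (AT3G24480) from 61.4 to 124 and from 40.9 to 61.0 FPKM, and *LRX3* (AT4G13340) from 19.7 to 80.6 and from 8.93 to 37.2 FPKM. One pair of libraries stood apart: the 2 *lrx345* libraries at 0 h had a summed FPKM of the 10 genes of 67.6 in replicate 1 and 97.0 in replicate 2, and calls that were lost or gained without either of them are given beside the result.

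The genes lie on chromosomes 2, 3, 4 and 5 of TAIR10. *FAR4* (AT3G44540, chromosome 3, 16124021 to 16127954, plus strand, 10 exons) and *FAR5* (AT3G44550, 16138017 to 16141546, plus strand, 10 exons) are neighbours in the same orientation, with 10062 bases between them, and *FAR8*, a further gene of their family, starts 9589 bases after the end of *FAR5*. The other members lie apart from each other. The 300 bases before the 5' end of a gene, the outer one of the count table's and RefSeq's, are shown for 4 members that differ in the motifs they hold. They were read from the RefSeq sequence of TAIR10.1. Capitals mark ACGTG, the core of the element bound by factors of abscisic acid signalling, and ACCTAAC, a short AC-rich element of a kind that MYB factors bind, on either strand. The search also took ACCTACC, and beside it the form ACCAACC, and last the form ACCAAAC, so that 4 AC-rich elements were searched on both strands. The first pair, *GPAT5* and *MYB41*, hold ACGTG more than once, *ASFT* has the AC-rich element, and *CYP86A1* has neither.
GPAT5, chr3:3595394-3595693, plus strand: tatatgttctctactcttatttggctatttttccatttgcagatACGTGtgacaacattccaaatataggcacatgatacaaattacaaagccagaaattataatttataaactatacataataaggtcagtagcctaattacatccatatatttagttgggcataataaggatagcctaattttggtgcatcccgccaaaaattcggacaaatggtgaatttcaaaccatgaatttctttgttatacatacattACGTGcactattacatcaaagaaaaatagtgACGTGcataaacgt
MYB41, chr4:13969526-13969825, minus strand: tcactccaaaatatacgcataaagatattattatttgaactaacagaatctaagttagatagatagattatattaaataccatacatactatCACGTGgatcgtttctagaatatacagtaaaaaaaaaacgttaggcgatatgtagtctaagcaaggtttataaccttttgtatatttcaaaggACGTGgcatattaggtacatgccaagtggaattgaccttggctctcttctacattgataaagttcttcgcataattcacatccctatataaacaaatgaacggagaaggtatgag
ASFT, chr5:16431004-16431303, plus strand: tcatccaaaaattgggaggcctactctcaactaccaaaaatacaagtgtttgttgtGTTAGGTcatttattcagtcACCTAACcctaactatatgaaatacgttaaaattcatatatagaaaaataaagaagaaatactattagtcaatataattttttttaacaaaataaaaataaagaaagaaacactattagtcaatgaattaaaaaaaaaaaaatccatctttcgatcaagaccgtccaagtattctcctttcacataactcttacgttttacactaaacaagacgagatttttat
CYP86A1, chr5:23768112-23768411, minus strand: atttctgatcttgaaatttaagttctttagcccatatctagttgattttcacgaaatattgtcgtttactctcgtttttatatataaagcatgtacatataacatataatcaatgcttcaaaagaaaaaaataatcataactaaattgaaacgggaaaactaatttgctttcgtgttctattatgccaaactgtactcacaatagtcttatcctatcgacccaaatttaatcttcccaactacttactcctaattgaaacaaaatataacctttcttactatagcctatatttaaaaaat

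In *GPAT5* the letters ACGTG begin at -256, -45 and -14 from the start of the gene. In *MYB41* they begin at -115 on the strand of the gene, and a palindrome at -208 holds them on both strands, as overlapping matches. *FAR1* and *FAR4* have 1 match each, so 4 of the 10 members hold ACGTG in this window, and 24.3% of 32821 genes do. ASFT has ACCTAAC at -244 on the opposite strand and at -224, and *ABCG2* has ACCTACC at -155. Any of the 4 AC-rich elements was found in 2 of the 10 members and in 15.6% of all genes. None of these motifs was found in the 300 bases of *CYP86A1*, *CYP86B1*, *FAR5* and *ABCG6*. The matches did not sort the members by their time courses in the wild type, since *ABCG6*, *CYP86B1* and *FAR5* had their highest level at 6 h with no match, and *FAR1* holds ACGTG and was highest at 24 h. They describe letters and not binding.

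The hydroxylases add a hydroxyl group to the far end of the fatty acid chain. *CYP86B1* (AT5G23190, chromosome 5, 7803141 to 7805815, minus strand, 2 exons), which acts on very long chains, had 2.44 and 2.81 FPKM in the wild type at 0 h and 18.3, 17.9 and 20.5 FPKM at 6 h. Its level was back at 2.35, 3.74 and 3.36 FPKM at 24 h and 2.86, 2.49 and 3.22 FPKM at 72 h. The *lrx345* mutant had 3.23 and 5.54 FPKM at 0 h, 8.82, 9.15 and 9.87 FPKM at 6 h, 3.44, 2.71 and 3.23 FPKM at 24 h and 4.86 to 6.06 FPKM at 72 h. The 6 h libraries of the wild type were thus above all others, with no overlap with the next group, the mutant at 6 h. The mutant was 2.03-fold lower at 6 h (log2 -1.02 ± 0.14, adjusted p = 5.49e-06), differed by -0.02 ± 0.20 on the log2 scale at 24 h (adjusted p = 0.951), and was 1.92-fold higher at 72 h (0.94 ± 0.18, adjusted p = 7.09e-05).

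*CYP86A1* (AT5G58860, chromosome 5, 23765814 to 23768049, minus strand, 2 exons), which hydroxylates shorter chains, had another time course. The wild type had 7.06 and 8.96 FPKM at 0 h, 13.6, 10.6 and 14.1 FPKM at 6 h, 22.6, 22 and 21.3 FPKM at 24 h and 11.6, 11.9 and 12.4 FPKM at 72 h. Its highest group was the wild type at 24 h, which overlapped no other group, while each of the other 7 groups overlapped its neighbour in the order of the means. In the *lrx345* mutant it had 8.91 and 9.79 FPKM at 0 h, 8.52, 7.45 and 7.75 FPKM at 6 h, 11.7, 12.5 and 9.77 FPKM at 24 h, and 14.2, 10.6 and 15.8 FPKM at 72 h. The mutant was below the wild type in every library at 6 h (-0.70 ± 0.14, adjusted p = 0.000279) and at 24 h (-0.95 ± 0.13, adjusted p = 2.29e-06), and the genotypes overlapped at 72 h (0.17 ± 0.13, adjusted p = 0.254). Without replicate 2 of the mutant at 72 h, the difference was 0.33 with an adjusted p of 0.0279.

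*GPAT5* (AT3G11430, chromosome 3, 3595765 to 3597952, plus strand, 2 exons) encodes the acyltransferase that links the hydroxylated chains to glycerol. The wild type had 1.94 and 1.96 FPKM at 0 h, 16.1, 15.5 and 20.4 FPKM at 6 h, 4.24, 4.22 and 4.39 FPKM at 24 h and 2.63, 3.53 and 2.82 FPKM at 72 h. The mutant had 2.37 and 3.68 FPKM at 0 h, 7.22, 8.55 and 9.64 FPKM at 6 h, 4.90, 4.61 and 3.20 FPKM at 24 h and 15.1, 11.6 and 15.3 FPKM at 72 h. The order of the genotypes at 6 h was turned at 72 h, where the mutant reached a level close under that of the wild type at 6 h, without overlap. The fold changes of the mutant against the wild type were 2.04-fold lower at 6 h (-1.03 ± 0.15, adjusted p = 1.01e-05) and 4.68-fold higher at 72 h (2.23 ± 0.17, adjusted p = 1.37e-10). At 24 h the groups overlapped (adjusted p = 0.987).

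The reductases FAR1, FAR4 and FAR5 make the primary fatty alcohols of root suberin, each with a preference for a chain length. *FAR4* had 4.87 and 5.01 FPKM in the wild type at 0 h, 23.7, 23.3 and 23.1 FPKM at 6 h, 9.68, 10.3 and 9.99 FPKM at 24 h and 3.87, 4.29 and 3.56 FPKM at 72 h. In the mutant it had 5.45 and 8.74 FPKM at 0 h, 16.5, 19 and 17.9 FPKM at 6 h, 9.38, 8.19 and 6.42 FPKM at 24 h, and 11.5, 10.7 and 13.3 FPKM at 72 h. Wild type libraries were above mutant libraries at 6 h and 24 h, and below them at 0 h and 72 h. The difference was called at 6 h (-0.39 ± 0.12, adjusted p = 0.0154) and at 72 h (1.59 ± 0.15, adjusted p = 2.80e-09). At 6 h it was not called without replicate 1 of the wild type (adjusted p = 0.0563) or replicate 1 of the mutant (adjusted p = 0.0764).

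*FAR5* had 8.12 and 7.52 FPKM in the wild type at 0 h, 33.2, 31.9 and 33.2 FPKM at 6 h, 16, 18 and 18 FPKM at 24 h, and 9.79, 10.8 and 10.5 FPKM at 72 h. In the mutant it had 8.79 and 16.2 FPKM at 0 h, 23.8, 27.3 and 27.1 FPKM at 6 h, 8.94, 10.3 and 8.47 FPKM at 24 h, and 22.8, 17.3 and 26 FPKM at 72 h. All mutant libraries were below the wild type at 6 h, although the difference did not pass the test (-0.33 ± 0.14, adjusted p = 0.0781). The mutant was 1.87-fold lower at 24 h (-0.90 ± 0.17, adjusted p = 8.65e-05) and 2.13-fold higher at 72 h (1.09 ± 0.16, adjusted p = 2.13e-06).

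*FAR1* (AT5G22500, chromosome 5, 7470443 to 7474120, plus strand, 10 exons) did not share the peak at 6 h. The wild type had 17.7 and 17.1 FPKM at 0 h, 25.8, 22.8 and 22.7 FPKM at 6 h, 30.7, 43.4 and 38.2 FPKM at 24 h, and 25.9, 24.0 and 24.9 FPKM at 72 h. In the mutant *FAR1* had its lowest level at 0 h, with 13.3 and 15.1 FPKM, and then 27.5, 30.3 and 30.1 FPKM at 6 h, 40.2, 48.1 and 53.6 FPKM at 24 h, and 64.9, 51.1 and 64.8 FPKM at 72 h. Its highest group was the mutant at 72 h, whose libraries overlapped those of the mutant at 24 h. The genotype difference was largest at 72 h, 2.42-fold higher in the mutant (1.27 ± 0.12, adjusted p = 2.27e-09). The calls at 6 h (0.30 ± 0.12, adjusted p = 0.0499) and 24 h (0.34 ± 0.12, adjusted p = 0.0178, libraries overlapping) were each lost without single libraries. At 6 h the call was lost without any 1 of 4 of the 6 libraries, with adjusted p values of 0.135 and 0.138 without wild type replicates 2 and 3, and of 0.111 and 0.116 without mutant replicates 2 and 3. At 24 h it was lost without replicate 1 of the wild type (adjusted p = 0.128) or replicate 3 of the mutant (adjusted p = 0.115).

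**Figure D1:**
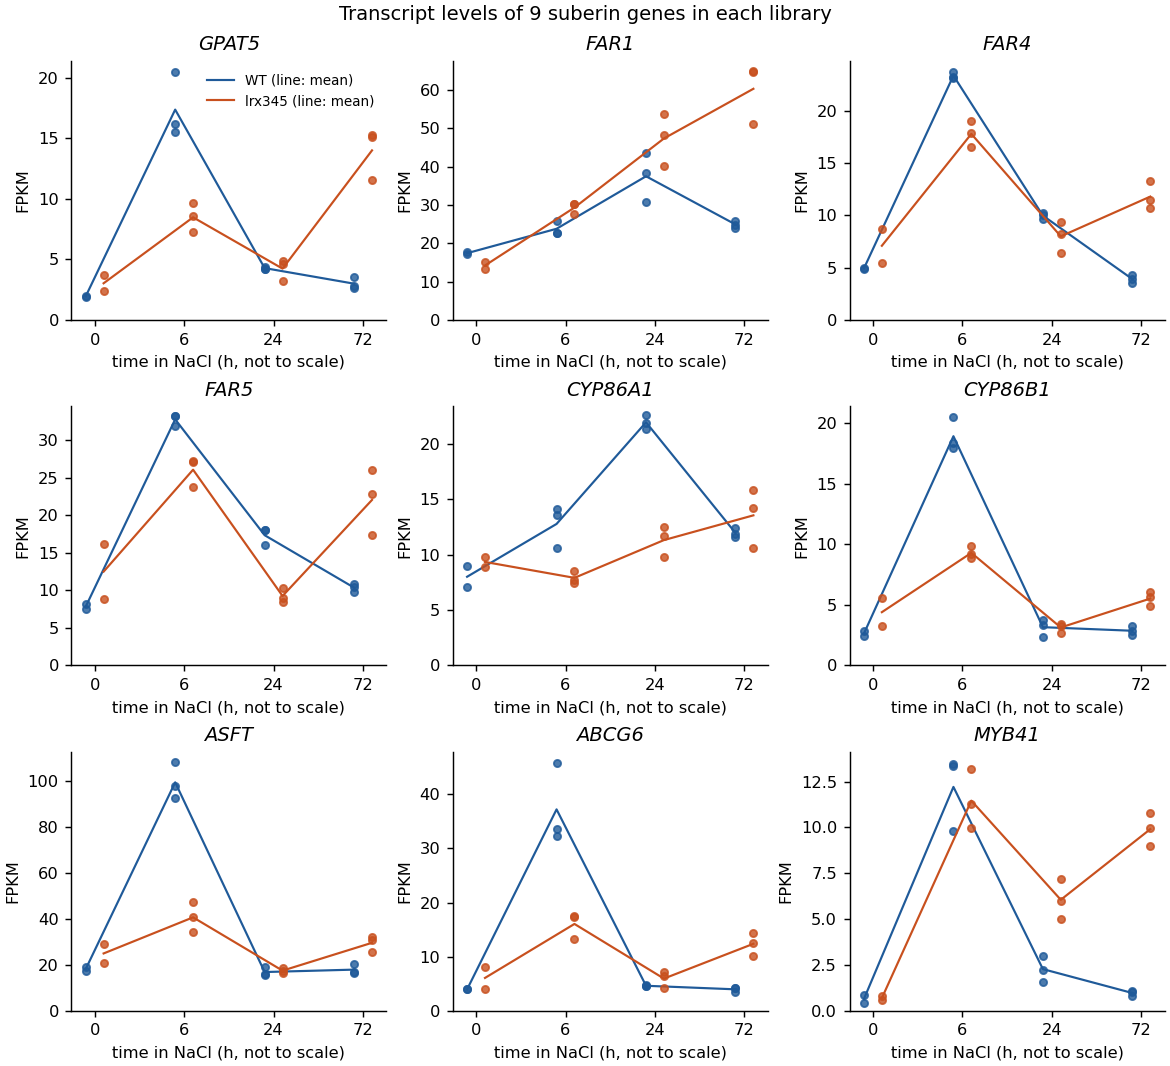
FPKM of the 9 tested genes in each library (points) against time in NaCl, with lines through the group means, for the wild type (blue) and the *lrx345* mutant (orange); each panel has its own scale from 0. The wild type peaks at 6 h for 7 genes, for example at 92.5 to 108 FPKM for ASFT, while *FAR1* and *CYP86A1* are highest at 24 h in the wild type.

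ASFT transfers ferulic acid to hydroxylated fatty acids and so links the aliphatic and the aromatic parts of suberin. Its gene *ASFT* (AT5G41040, chromosome 5, 16431374 to 16433305, plus strand, 3 exons) reached the highest level of the 10, with 97.9, 92.5 and 108 FPKM in the wild type at 6 h. The wild type had 17.3 and 19 FPKM at 0 h, 19.1, 16.1 and 15.5 FPKM at 24 h and 16.6, 16.9 and 20.2 FPKM at 72 h. At 24 h and 72 h the mean level of *FAR1* was above that of *ASFT* in both genotypes. *ASFT* made up between 35.5% and 36.0% of the summed FPKM of the 10 genes in the wild type at 6 h, and between 22.8% and 26.2% in the mutant. The mutant had 20.8 and 29.1 FPKM of *ASFT* at 0 h, 34.2, 40.6 and 47.2 FPKM at 6 h, 18.8, 17.3 and 16.2 FPKM at 24 h, and 32.3, 25.8 and 30.7 FPKM at 72 h. The wild type at 6 h overlapped no other group, and neither did the mutant at 6 h, the next in order. The mutant was 2.44-fold lower at 6 h (-1.29 ± 0.12, adjusted p = 1.49e-08), 1.04-fold higher at 24 h with overlapping libraries (adjusted p = 0.769) and 1.65-fold higher at 72 h (0.72 ± 0.13, adjusted p = 4.47e-05).

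The half-size transporters ABCG2 and ABCG6, with ABCG20, are needed for a normal suberin barrier in Arabidopsis roots and seed coats. *ABCG6* (AT5G13580, chromosome 5, 4370692 to 4373201, plus strand, 1 exon) had 3.95 and 3.94 FPKM in the wild type at 0 h, 33.5, 32.4 and 45.7 FPKM at 6 h, 4.59, 4.77 and 4.49 FPKM at 24 h and 3.51, 4.17 and 4.18 FPKM at 72 h. In the mutant it had 4.08 and 8.04 FPKM at 0 h, 13.2, 17.6 and 17.3 FPKM at 6 h, 7.24, 6.40 and 4.19 FPKM at 24 h, and 12.6, 10.1 and 14.4 FPKM at 72 h. The 6 h peak of the wild type was above every other library, and the mutant at 6 h and at 72 h had overlapping levels. The mutant was 2.31-fold lower at 6 h (-1.21 ± 0.18, adjusted p = 9.31e-06) and 3.13-fold higher at 72 h (1.65 ± 0.21, adjusted p = 3.54e-07), and did not pass the test at 24 h (0.38 ± 0.23, adjusted p = 0.165).

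The level of *ABCG2* (AT2G37360, chromosome 2, 15673442 to 15675920, minus strand, 1 exon) cannot be read from these counts. It had 0 to 8 counts per library and 80 in all 22. Of its 2479 exon bases, 2234 are shared with a gene on the opposite strand, AT2G37362 (15673687 to 15675978), and the counting did not use strand and left out fragments over several genes. That leaves 245 bases in which a fragment could be counted for *ABCG2*. AT2G37362 has 58 exon bases that are not shared and had 0 to 3 counts per library, so its level cannot be read either. None of the other 9 members overlaps an annotated gene.

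*MYB41* (AT4G28110, chromosome 4, 13968029 to 13969384, minus strand, 3 exons) encodes a transcription factor that can turn on suberin genes, also in leaf cells when it is overexpressed. It was low at 0 h in both genotypes, with 0.437 and 0.854 FPKM in the wild type and 0.588 and 0.791 FPKM in the mutant, from 6 to 12 counts per library. At 6 h it had 13.4, 9.81 and 13.5 FPKM in the wild type and 9.95, 11.3 and 13.2 FPKM in the mutant, ranges that overlap (-0.09 ± 0.18, adjusted p = 0.726). The genotypes then parted, with 2.23, 3.01 and 1.57 FPKM in the wild type at 24 h against 7.19, 4.99 and 5.97 FPKM in the mutant, and 1.02, 1.10 and 0.788 FPKM in the wild type at 72 h against 9.96, 8.98 and 10.8 FPKM in the mutant. No mutant library was within the range of the wild type at 24 h or 72 h. The mutant was 2.69-fold higher at 24 h (1.43 ± 0.24, adjusted p = 2.88e-05) and 10.1-fold higher at 72 h (3.34 ± 0.25, adjusted p = 7.01e-11), the largest genotype difference among the members.

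In the wild type the 9 genes rose together at 6 h. All 9 were called higher than at 0 h, where 19.3% of the genes tested were, and their median log2 fold change was 2.45 beside a median of -0.02 over all genes tested. Of the 9, *GPAT5*, *FAR4*, *FAR5*, *CYP86B1*, *ASFT* and *ABCG6* are on the study's list of salt-inducible genes, selected on these same samples. The rise of those genes is thus not independent evidence. *FAR1*, *CYP86A1* and *MYB41* are not on that list. The rise was 18.6-fold for *MYB41* (4.22 ± 0.30, adjusted p = 8.94e-11), 9.42-fold for *ABCG6* (3.24 ± 0.23, adjusted p = 1.38e-10) and 8.88-fold for *GPAT5* (3.15 ± 0.21, adjusted p = 2.68e-11). It was smallest for *CYP86A1*, 1.60-fold (0.68 ± 0.15, adjusted p = 0.000890), and for *FAR1*, 1.37-fold (0.45 ± 0.14, adjusted p = 0.0101), whose call was lost without the unnumbered wild type library at 0 h (adjusted p = 0.0747). From 6 h to 24 h, 7 of the 9 were called lower (18.8% of all genes tested), by between 1.89-fold for *FAR5* and 8.07-fold for *ABCG6*, and *FAR1* and *CYP86A1* were called higher (19.8% of all genes tested). From 24 h to 72 h, 6 were called lower (19.6% of all genes tested), and *CYP86B1*, *ASFT* and *ABCG6*, which were not called different from 0 h at 24 h either, were not called. The call of *GPAT5* between 24 h and 72 h (-0.52 ± 0.19, adjusted p = 0.0297) was lost without any 1 of 5 of the 6 libraries, all but replicate 2 at 72 h, with adjusted p from 0.0539 to 0.119. Compared with 0 h, 6 genes were called higher at 24 h (16.1% of all genes tested). At 72 h *GPAT5*, *FAR1* and *CYP86A1* were still called above their 0 h level (24.7% of all genes tested), by 1.43-fold to 1.52-fold. Without replicate 1 of the wild type at 0 h the calls of *GPAT5* (adjusted p = 0.127) and *CYP86A1* (adjusted p = 0.0836) were lost, and that of *GPAT5* was also lost without the unnumbered library at 0 h (adjusted p = 0.117) or replicate 2 at 72 h (adjusted p = 0.130).

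In the *lrx345* mutant 8 of the 9 rose at 6 h (23.9% of all genes tested), with a median log2 fold change of 1.11, from 1.64-fold for *ASFT* (0.71 ± 0.14, adjusted p = 0.000237) to 16.7-fold for *MYB41* (4.07 ± 0.30, adjusted p = 1.70e-10). *CYP86A1* was not called (-0.24 ± 0.15, adjusted p = 0.205). From 6 h to 24 h the mutant, like the wild type, had 7 genes called lower (21.2% of all genes tested) and *FAR1* and *CYP86A1* called higher (21% of all genes tested). From 24 h to 72 h the genotypes moved apart, since 8 of the 9 were called higher in the mutant (26.3% of all genes tested), led by *GPAT5*, 3.26-fold (1.71 ± 0.17, adjusted p = 2.55e-08), and *FAR5*, 2.37-fold (1.24 ± 0.17, adjusted p = 1.25e-06). *FAR1* was among them (0.35 ± 0.11, adjusted p = 0.0137), and its call was lost without mutant replicate 1 at 24 h or replicate 1 or 3 at 72 h, with adjusted p from 0.0664 to 0.12. Compared with 0 h, *GPAT5*, *FAR1* and *MYB41* were called higher in the mutant at 24 h (27.5% of all genes tested) and *ASFT* lower (26.4%). This comparison turned on the pair of mutant libraries at 0 h. Without replicate 1, *FAR5* (-0.80, adjusted p = 0.000547) and *CYP86B1* (-0.84, adjusted p = 0.00276) were also called lower, so that 3 were, and without replicate 2 none was called lower and *FAR4* was called higher (0.60, adjusted p = 0.00651). *ASFT* was lost without mutant replicate 2 at 0 h (adjusted p = 0.332), and *GPAT5* (0.52 ± 0.22, adjusted p = 0.0496) was lost without replicate 1 at 0 h (adjusted p = 0.540) and without replicate 1 or 2 at 24 h (adjusted p = 0.166 and 0.137). At 72 h, 7 genes were called higher than at 0 h (34.4% of all genes tested), and without replicate 2 at 0 h *CYP86B1* (adjusted p = 0.00315) and *ASFT* (adjusted p = 0.0136) were called too.

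Between the genotypes, the 9 genes leaned one way at 6 h and the other way at 72 h. At 6 h, 6 were called lower in the mutant (17.7% of all genes tested) and 1 higher (18.3%), with a median of -0.70 beside -0.05 over all genes tested. At 72 h, 8 were called higher (31.3% of all genes tested), with a median of 1.27 beside -0.01. At 24 h *MYB41* and *FAR1* were called higher (24.3% of all genes tested) and *FAR5* and *CYP86A1* lower (28.4%), with a median of -0.00. *FAR4* was called lower at 24 h without mutant replicate 1 (adjusted p = 0.0273), and *ABCG6* higher without mutant replicate 3 (adjusted p = 0.0495). Of the 10 genes, 6 (*GPAT5*, *FAR4*, *FAR5*, *CYP86B1*, *ASFT* and *ABCG6*) belong to the study's list of salt-inducible genes. It was selected on these same samples for a lower level in the mutant at 6 h and a higher one at 72 h. The direction of those 6 is thus not independent evidence. The other 3 tested members did not follow it: *FAR1* was not lower at 6 h, *CYP86A1* was not called at 72 h, and *MYB41* did not differ beyond the spread at 6 h.

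At 0 h, before salt, *FAR5* (0.66 ± 0.20, adjusted p = 0.0220), *CYP86B1* (0.71 ± 0.22, adjusted p = 0.0227) and *ASFT* (0.45 ± 0.16, adjusted p = 0.0487) were called higher in the mutant, where 10.0% of all genes were. Without mutant replicate 2 all 3 were lost, with adjusted p values of 0.670, 0.502 and 0.579, and without mutant replicate 1, 6 genes were called, with *GPAT5*, *FAR4* and *ABCG6* beside these 3. Leaving out either wild type library also ended the 3 calls, with adjusted p from 0.0624 to 0.255.

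**Figure D2:**
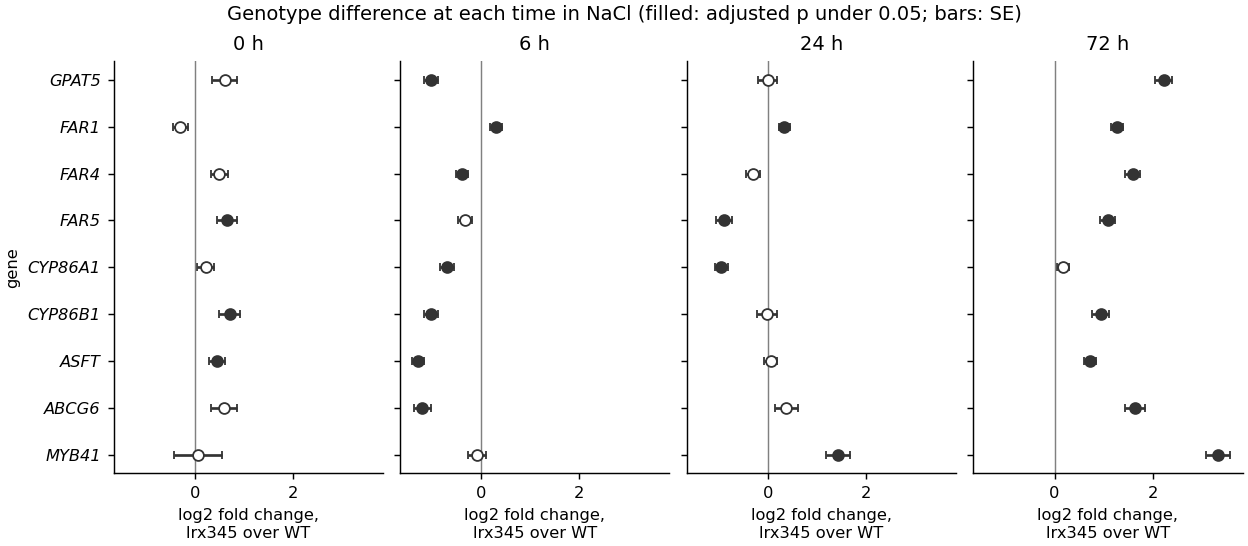
Log2 fold change of the *lrx345* mutant over the wild type for the 9 tested genes at 0, 6, 24 and 72 h in NaCl, with SE as bars and filled points at an adjusted p under 0.05. Most points lie left of 0 at 6 h, down to -1.29 for *ASFT*, and right of 0 at 72 h, up to 3.34 for *MYB41*.

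Whether the genotypes differed by the same amount at 2 times was tested directly, as an interaction. From 0 h to 6 h the genotype difference became more negative for 7 of the 9 genes (3.44% of all genes tested), with values from -0.89 to -1.80 on the log2 scale. *ABCG6* changed most (-1.80 ± 0.32, adjusted p = 0.000505), with *ASFT* (-1.74 ± 0.20, adjusted p = 3.52e-06) and *CYP86B1* (-1.74 ± 0.26, adjusted p = 8.96e-05) close to it. *MYB41* changed by -0.15 ± 0.52 (adjusted p = 0.912) and *FAR1* by 0.60 ± 0.19 in the other direction (adjusted p = 0.0536 by edgeR and 0.0490 by DESeq2). Without mutant replicate 2 at 0 h, *FAR4* (adjusted p = 0.141) and *FAR5* (adjusted p = 0.191) were no longer called. *FAR4* was also lost without replicate 1 of the wild type at 0 h (adjusted p = 0.0526), as was *CYP86A1* (adjusted p = 0.0716), and *FAR5* without the unnumbered library of that group (adjusted p = 0.0676).

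Between 24 h and 72 h the genotype difference became more positive for all 9 genes tested (14.3% of all genes tested), from 0.67 ± 0.19 for *ASFT* (adjusted p = 0.00993) to 2.23 ± 0.26 for *GPAT5* (adjusted p = 6.13e-07). *FAR4* and *FAR5*, the neighbours on chromosome 3, changed by 1.91 ± 0.21 and 1.99 ± 0.23. Between 6 h and 72 h it also became more positive for all 9 (17% of all genes tested), most for *MYB41* (3.43 ± 0.31, adjusted p = 8.17e-09) and *GPAT5* (3.25 ± 0.23, adjusted p = 1.57e-10) and least for *CYP86A1* (0.87 ± 0.19, adjusted p = 0.000818). These 2 contrasts share the libraries at 72 h. Of the 9, 6 are on the list that the study selected on these same samples. That list asked for salt-inducible genes with a lower level in the mutant at 6 h and a higher one at 72 h. The direction of both contrasts, and of the change from 0 h to 6 h, is thus not independent evidence for those 6.

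Across the 22 libraries, the log2 levels of 7 members rose and fell together, while *FAR1* and *CYP86A1* stood apart. The Pearson correlation of a member with the mean of the other members was 0.96 for *GPAT5*, 0.91 for *FAR4* and *FAR5*, 0.90 for *ABCG6*, 0.86 for *MYB41*, 0.83 for *CYP86B1* and 0.77 for *ASFT*, and 0.26 for *FAR1* and 0.09 for *CYP86A1*. These values are descriptions over libraries that share groups. The genes whose pattern was most like the mean of the members were *LAC5* (r = 0.97) and *LAC12* (r = 0.96), which encode laccases, *PELPK1* (r = 0.96), AT4G03540 (r = 0.95) and *ANNAT7* (r = 0.94). For single members the closest genes were AT4G33610 for *ABCG6* (r = 0.98), AT3G03341 for *MYB41* (r = 0.98) and AT1G55990 for both *ASFT* (r = 0.98) and *CYP86B1* (r = 0.97). They were AT5G09620 for *GPAT5* (r = 0.96), AT5G14130 for *FAR5* (r = 0.95) and AT1G67360 for *FAR4* (r = 0.94). *FAR1* was closest to *HAC1* (r = 0.96) and *CYP86A1*, with the lowest of these values, to *SCC3* (r = 0.87).

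The fatty alcohol reductases were compared with the rest of their family, because *FAR5* and *FAR8* are alike in sequence. Over 1524 aligned bases of exon, *FAR5* and *FAR8* are 87.4% identical, the highest identity of any member with a gene that does not overlap it, and *FAR1* and *FAR4* are 76.9% identical over 1488 bases. *FAR8* had 0 to 0.164 FPKM in the wild type at 0, 6 and 24 h, where *FAR5* had 7.52 to 33.2 FPKM. In the mutant *FAR8* had 3.66, 3.56 and 0.275 FPKM at 24 h and 6.10, 7.58 and 12.2 FPKM at 72 h, against 1.0, 0.651 and 0.101 FPKM in the wild type at 72 h (3.84 ± 0.55, adjusted p = 6.42e-06). The part of shared reads in the level of *FAR8* was not tested. *FAR3*, which serves the wax of the shoot, moved the other way. It had 5.71, 6.53 and 7.46 FPKM in the wild type at 72 h and 0.139, 0.333 and 0.331 FPKM in the mutant (-4.52 ± 0.27, adjusted p = 2.19e-12). *FAR6* had at most 12 counts per library, and *FAR2* and *FAR7* had too few to be tested.

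A further 14 genes of suberin synthesis, export and control, from a list made for this purpose with results of these data already known, were all tested. Whether any of these 14 is on the list that the study selected on these same samples was not checked. Their directions may thus not be independent evidence. In the wild type, 13 of the 14 were called higher at 6 h than at 0 h (19.3% of all genes tested), with a median of 1.87, and *MYB92* was not called (0.26 ± 0.13, adjusted p = 0.137). *GPAT7*, an acyltransferase close to *GPAT5*, rose 25.4-fold (4.67 ± 0.32, adjusted p = 6.02e-11), and *KCS2*, which encodes an enzyme of chain elongation, 10.4-fold (3.38 ± 0.18, adjusted p = 1.10e-12).

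Between the genotypes at 6 h, 9 of the 14 were called lower in the mutant (17.7% of all genes tested) and 1 higher (18.3%), with a median of -0.55. The gene called higher was *MYB39*, also known as *SUBERMAN*, a MYB factor of endodermal suberin, with 6.27, 3.67 and 3.94 FPKM in the wild type and 14.1, 10.5 and 12.8 FPKM in the mutant (1.41 ± 0.24, adjusted p = 6.00e-05). *MYB107*, a factor known for seed coat suberin, was among those called lower (-1.29 ± 0.22, adjusted p = 5.15e-05). At 24 h, 5 were called higher (24.3% of all genes tested) and 7 lower (28.4%), with a median of -0.42. At 72 h, 9 were called higher (31.3% of all genes tested) and 1 lower (30.7%), with a median of 0.81. *FACT*, which transfers caffeic acid to fatty alcohols, had 19.3, 16.7 and 15.2 FPKM in the wild type at 72 h and 57.8, 47.0 and 63.4 FPKM in the mutant (1.71 ± 0.12, adjusted p = 4.93e-11). *ABCG1*, a transporter, had 10.2, 11.8 and 10.4 FPKM in the wild type and 34.7, 35.7 and 37.7 FPKM in the mutant (1.74 ± 0.08, adjusted p = 5.32e-14), and *GPAT7* was also higher (2.22 ± 0.28, adjusted p = 3.44e-07). *LACS2*, an acyl-CoA synthetase that also serves cutin, was the gene called lower (-0.47 ± 0.11, adjusted p = 0.000504).

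**Figure D3:**
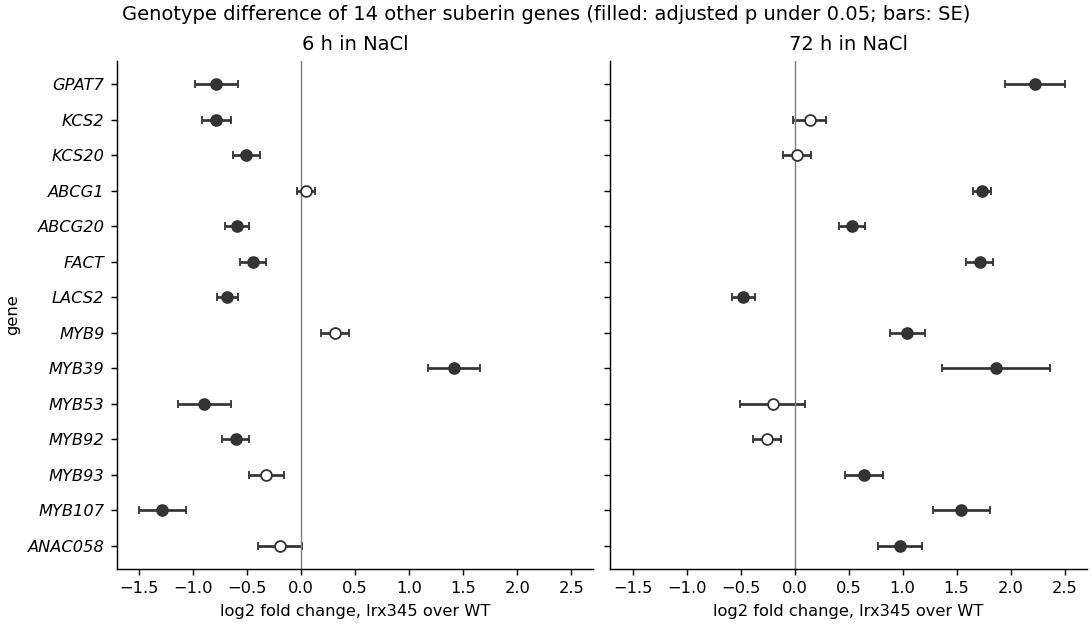
Log2 fold change of the *lrx345* mutant over the wild type for 14 further suberin genes at 6 h and 72 h in NaCl, with SE as bars and filled points at an adjusted p under 0.05. At 6 h 9 genes are called left of 0 and *MYB39* right of it (1.41), and at 72 h 9 are called right of 0, up to 2.22 for *GPAT7*.

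Cutin, the polyester of the shoot surface, is made from related monomers by other members of the same families. Of 14 cutin genes, all tested, 10 were called lower in the mutant at 6 h (median -0.52), 8 lower and 1 higher at 24 h (median -0.48), and 8 lower and 1 higher at 72 h (median -0.81). Of all genes tested, 17.7%, 28.4% and 30.7% were called lower at these times, and 24.3% and 31.3% were called higher at 24 h and 72 h. At 72 h the gene called higher was *GPAT6*, an acyltransferase of flower cutin, with 6.26, 5.68 and 6.27 FPKM in the wild type and 17, 13.1 and 14.1 FPKM in the mutant (1.27 ± 0.12, adjusted p = 3.63e-09). The summed FPKM of the cutin genes at 72 h was 253 to 303 in the wild type and 168 to 207 in the mutant, where that of the 10 suberin genes was 77.9 to 82.5 and 151 to 197. The 2 lists thus lay on opposite sides at 72 h and on the same side at 6 h.

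Seedling RNA holds many cell types, and fewer cells of a type cannot be told apart from less RNA per cell. Markers of the endodermis and its Casparian strip, the cell layer in which root suberin is laid down, were therefore set beside the members. Of 9 such genes, 8 were tested and *ESB1* was too low. They did not follow the members at 72 h, when all 8 were called lower in the mutant (30.7% of all genes tested), with a median of -2.30. Single values ran from -2.51 to -0.42. Most of the list are genes of the strip itself, so the list does not measure the number of endodermis cells. At 24 h, 7 of the 8 were called lower (28.4% of all genes tested), with a median of -3.33, and *MYB36*, the factor that turns on strip genes, was not called (-0.00 ± 0.16, adjusted p = 0.999). *CASP1*, a scaffold protein of the strip, had 48.7, 50.6 and 58.2 FPKM in the wild type at 72 h and 8.44, 10.9 and 8.36 FPKM in the mutant (-2.49 ± 0.13, adjusted p = 2.87e-13). At 6 h, 6 of the 8 were called lower (17.7% of all genes tested), with a median of -2.82, and *MYB36* was called higher (0.87 ± 0.14, adjusted p = 4.02e-05). The summed FPKM of the list was 99.3 to 103 in the wild type and 41.3 to 42.8 in the mutant at 6 h, and 139 to 170 and 44.5 to 51.3 at 72 h. The lowest of the tested markers was *CASP5*, with 0 to 1 counts per library in the mutant at 24 h.

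Other markers moved with the genotype too. All 6 root hair and root epidermis genes were called lower in the mutant at 6, 24 and 72 h, where 17.7%, 28.4% and 30.7% of all genes tested were, and their summed FPKM at 72 h was 395 to 495 in the wild type and 107 to 139 in the mutant. At 0 h the same sum was 147 to 151 in the wild type and 183 and 83.9 in mutant replicates 1 and 2, the pair in which the suberin genes also differed. All 5 green tissue genes were called lower in the mutant at 24 h and 72 h (28.4% and 30.7% of all genes tested), with sums at 72 h of 8788 to 10140 FPKM in the wild type and 4217 to 5141 FPKM in the mutant. Storage genes of the seed stayed at or below 1.33 FPKM in sum in every library. The part of these shifts between tissues in the levels of the suberin genes was not tested.

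**Figure D4:**
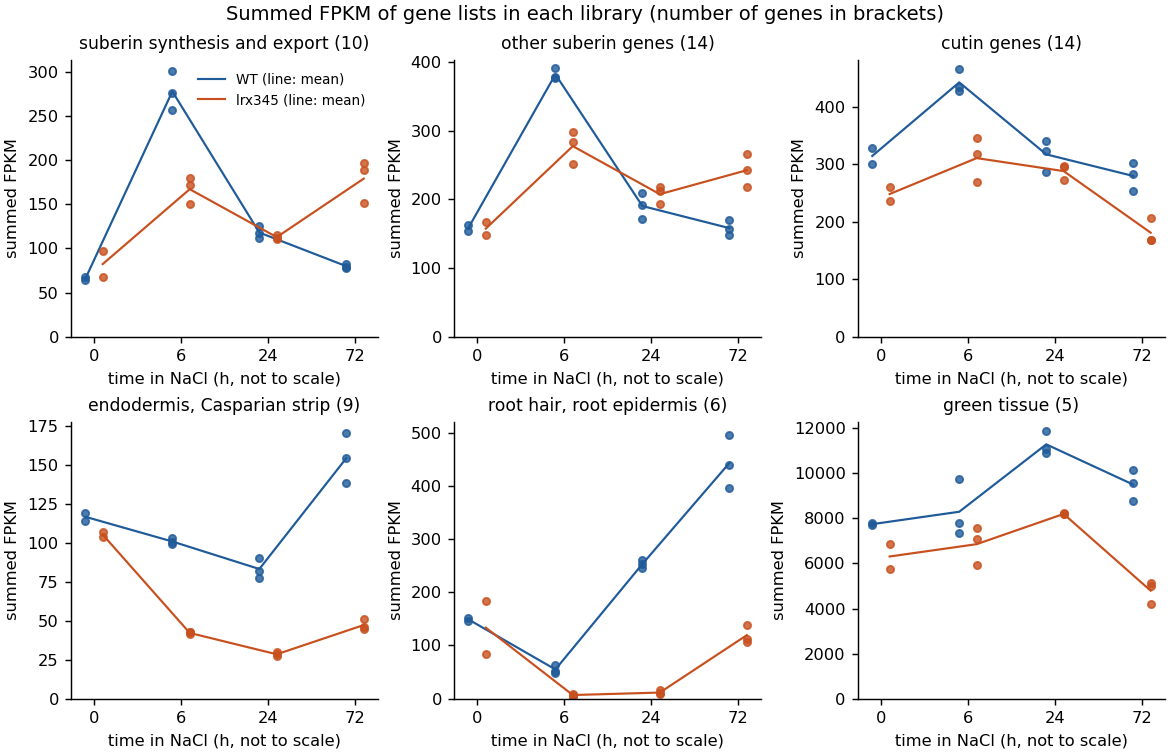
Summed FPKM of 6 gene lists in each library (points) against time in NaCl, with lines through the group means, for the wild type (blue) and the *lrx345* mutant (orange); each panel starts at 0. At 72 h the suberin genes are higher in the mutant (151 to 197 against 77.9 to 82.5), while the endodermis, root hair, cutin and green tissue lists are lower.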

How the data were processed

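The authors sequenced RNA from whole seedlings, checked reads with FastQC, aligned them with TopHat2 and counted fragments with featureCounts 1.4.6 against the Ensembl annotation of TAIR10. Per the file headers, the deposited values are raw counts of read pairs over exons per gene, counted without strand, with fragments that map to several places or genes left out, which lowers genes that overlap or resemble another gene. Of the 22 libraries, 1 wild type library at 0 h carries a column name whose replicate number differs from its label and was kept without a number. Library totals ranged from 7413461 to 15047080 counts (median 11799160.5), and no 2 libraries of a group agreed within sampling noise (chi-square per degree of freedom 2.30 to 12.7 over 20 pairs).

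Genes were kept by edgeR's filterByExpr with the 8 groups, which left 21831. They were scaled by TMM and tested with edgeR 4.0.16 (R 4.3.3), glmQLFit and glmQLFTest, in 1 model over all groups with contrasts for genotype, time and their interaction, and Benjamini-Hochberg adjustment. The SE is the log2 fold change over the square root of F. Alternatives were DESeq2 1.42.0, upper-quartile scaling, no filter, a mean count of at least 20, a fit of only the groups compared, a replicate block, a fold change above 2 and leaving out each library. The fit with the replicate block had no unnumbered library. The members and lists were chosen with earlier results of these data known. All 10 members are named, as are genes of the lists, picked after their values were seen, and the tested genes with the highest Pearson correlation of log2 CPM with the members' mean and with each member. Promoters were read from the RefSeq genome TAIR10.1, in which 97.7% of the gaps between the table's exons are bounded by GT and AG. Only 32.3% of 32835 genes have the same start and end in the table and in RefSeq, so the windows depend on the gene start taken. The replicates are stated to be biological, and the labels do not name separate plates or plantings, so p-values measure the spread between these libraries.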

Additional observations from a re-analysis of the deposited data

Results flagged for a closer look

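Results are listed here because the test of the interaction found that the genotype difference was not the same at 2 times. Values are differences of log2 fold changes (*lrx345* over wild type) at the later time minus the earlier time, from edgeR. For 6 h minus 0 h they were -1.64 for *GPAT5*, -0.89 for *FAR4*, -0.98 for *FAR5*, -0.92 for *CYP86A1*, -1.74 for *CYP86B1*, -1.74 for *ASFT* and -1.80 for *ABCG6*. Mutant replicate 2 at 0 h, which had the higher suberin sum of its pair, enters all 7 values, and *FAR4* and *FAR5* were not called without it.

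For 72 h minus 24 h the values were 2.23 for *GPAT5*, 0.94 for *FAR1*, 1.91 for *FAR4*, 1.99 for *FAR5*, 1.12 for *CYP86A1*, 0.96 for *CYP86B1*, 0.67 for *ASFT*, 1.27 for *ABCG6* and 1.92 for *MYB41*. For 72 h minus 6 h they were 3.25 for *GPAT5*, 0.97 for *FAR1*, 1.99 for *FAR4*, 1.42 for *FAR5*, 0.87 for *CYP86A1*, 1.97 for *CYP86B1*, 2.01 for *ASFT*, 2.85 for *ABCG6* and 3.43 for *MYB41*. In *CYP86A1* the change came with a mutant level below the wild type at 6 h and 24 h and overlapping levels at 72 h, while in *MYB41* it came with overlapping levels at 6 h and a mutant level above the wild type at 72 h. The study's list, selected on these same samples, holds *GPAT5*, *FAR4*, *FAR5*, *CYP86B1*, *ASFT* and *ABCG6*. That list asked for salt-inducible genes with a lower level in the mutant at 6 h and a higher one at 72 h. The direction of those genes in these contrasts is thus not independent evidence.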

How the results depend on the processing

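No log2 fold change called for a member changed sign under any alternative run. Counts of members called are given here where they moved by over 1.5 times. With a fold change above 2 as a further threshold, the counts fell to 0 of 3 (mutant higher at 0 h), 0 of 1 (higher at 6 h), 1 of 2 (higher at 24 h), 0 of 2 (lower at 24 h), 0 of 3 (wild type higher at 72 h than 0 h), 0 of 2 (wild type higher at 24 h than 6 h), 2 of 6 (wild type lower at 72 h than 24 h), 0 of 1 (mutant lower at 24 h than 0 h), 4 of 7 (mutant higher at 72 h than 0 h), 0 of 2 (mutant higher at 24 h than 6 h), 3 of 8 (mutant higher at 72 h than 24 h) and 4 of 7 (interaction, 6 h minus 0 h, lower), by construction. Upper-quartile scaling gave 0 of 1 higher at 6 h, 1 of 2 higher at 24 h and 3 in place of 1 lower in the mutant at 24 h against 0 h, a contrast in which it moved the median of all genes by -0.10 (by -0.14 at 72 h against 0 h). No filter gave 2 in place of that 1. Fitting only the groups compared gave 1 of 3 higher at 0 h. For the interaction of 6 h minus 0 h, edgeR called 0 higher, with *FAR1* at an unadjusted p under 0.05, and DESeq2, no filter, the mean count of 20 and the fit of only the groups compared each called 1, *FAR1*. The cause was not tested.

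The replicate block was fitted without the unnumbered wild type library at 0 h. In contrasts with that group, the effect of the block thus cannot be told apart from the loss of that library. With the replicate block, 0 of 3 were higher at 0 h, 0 of 1 at 6 h, 1 of 3 higher in the wild type between 0 h and 72 h, and 2 in place of 1 lower in the mutant at 24 h against 0 h. For the interaction of 6 h minus 0 h it gave 5 of 7 lower, without *FAR4* (adjusted p = 0.0679) and *FAR5* (adjusted p = 0.0987). It also ended the calls of *FAR1* in the wild type at 6 h (adjusted p = 0.140) and of *GPAT5* in the mutant at 24 h against 0 h (adjusted p = 0.0829). The numbers did not pair the libraries, with correlations of deviations from -0.12 to 0.09. Leaving out 1 library gave 0 to 6 higher at 0 h, 0 to 1 higher at 6 h, 1 to 2 higher at 24 h, 1 to 3 higher in the wild type between 0 h and 72 h, and 0 to 3 lower in the mutant at 24 h against 0 h. The counts of 6 lower at 6 h and 8 higher at 72 h were 5 to 6 and 8 to 9. An alternative in CPM in place of FPKM was not run, since both are proportional within a gene. Depth limits *ABCG2*, with 0 to 8 counts, and *MYB41* at 0 h, with 6 to 12.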
